A study of Mus musculus with 12 samples.

Results

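Glutathione S-transferases are enzymes that join the tripeptide glutathione to reactive, electrophilic compounds. The 10 cytosolic members described here were chosen by name, from the alpha class (Gsta2, Gsta3, Gsta4), the mu class (Gstm1, Gstm2, Gstm3, Gstm4), the pi class (Gstp1) and the theta class (Gstt1, Gstt2). They are 10 of the 16970 genes in the deposited table, and all 10 passed the filter on low values. Expression was measured by RNA-seq in 12 mouse liver libraries, in 4 groups of 3. BDL libraries came from mice with the bile duct ligated for 7 days. In BDL_H, ligated mice were given 100 mg/kg of the bile acid HDCA (hyodeoxycholic acid) for 4 days, starting 3 days after the operation. The groups titled MDR and MDR_H were taken to be the Abcb4-/- mice of the series description, because it names no other second model. Abcb4 is the canalicular transporter that flips phosphatidylcholine into bile. The MDR_H mice received 100 mg/kg HDCA over 21 days and were 60 days old; the age of the untreated MDR mice is not given. Dosing therefore differed between models, 4 days in one and 21 days in the other. The sources used here give no strain, sex or vehicle, and livers without cholestasis were not analysed here. The labels do not tie replicates to separate animals; p-values rest on library-to-library spread, part of which may be technical.

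In hepatocytes, conjugation by these enzymes is the second phase of detoxification, after oxidation by cytochromes P450. Glutathione is made by glutamate-cysteine ligase and glutathione synthetase, and the finished conjugates leave the cell through ABC transporters such as Abcc2, which opens into bile. Many mouse transferase genes respond to Nfe2l2 (NRF2), a factor released from Keap1 by electrophiles, and to the xenobiotic receptors Nr1i3 (CAR) and Nr1i2 (PXR). Gstp1 is known in mouse liver for higher levels in males than in females.

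The members lie at 5 places in the mouse genome (GRCm38, GENCODE M21 gene models). Gstm3, Gstm2, Gstm1 and Gstm4 lie in this order within 81199 bases of chromosome 3 (107963696 to 108044894). Gsta4 and Gsta2 lie on chromosome 9 (78182774 to 78209349 and 78331018 to 78355788). Gstt1 and Gstt2 lie on chromosome 10 (75783813 to 75798584 and 75831114 to 75837424). Gsta3 is on chromosome 1 (21240589 to 21265661) and Gstp1 on chromosome 19 (4035407 to 4037985). RefSeq promoters, 250 bases before a transcription start to 50 after it in GRCm38.p6, were matched for 8 of the 10 members; Gsta4 and Gstt2 had no entry. The promoters of 4 members are printed here because these members gave the contrasting patterns described below: Gstm3 the widest range of levels, Gstm1 the highest level, Gsta3 the narrowest range and Gstp1 a single high library. They are written 5′ to 3′ on the strand of the gene, and capitals mark matches to the motifs listed after them. Gstm3 is at chr3:107969125-107969424 (minus strand), Gstm1 at chr3:108017769-108018068 (minus strand, 1 of its 2 starts), Gsta3 at chr1:21240335-21240634 (plus strand) and Gstp1 at chr19:4037863-4038162 (minus strand).
Gstm3: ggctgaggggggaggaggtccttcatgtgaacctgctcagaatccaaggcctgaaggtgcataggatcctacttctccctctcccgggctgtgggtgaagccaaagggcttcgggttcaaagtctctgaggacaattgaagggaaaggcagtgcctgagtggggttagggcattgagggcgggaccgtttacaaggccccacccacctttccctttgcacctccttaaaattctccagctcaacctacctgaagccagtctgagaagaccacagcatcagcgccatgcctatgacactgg
Gstm1: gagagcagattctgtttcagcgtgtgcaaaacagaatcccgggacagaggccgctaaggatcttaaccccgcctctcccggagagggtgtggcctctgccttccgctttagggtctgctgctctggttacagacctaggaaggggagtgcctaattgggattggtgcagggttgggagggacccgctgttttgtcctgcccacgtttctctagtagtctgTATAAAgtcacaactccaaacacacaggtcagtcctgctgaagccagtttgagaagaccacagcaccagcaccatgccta
Gsta3: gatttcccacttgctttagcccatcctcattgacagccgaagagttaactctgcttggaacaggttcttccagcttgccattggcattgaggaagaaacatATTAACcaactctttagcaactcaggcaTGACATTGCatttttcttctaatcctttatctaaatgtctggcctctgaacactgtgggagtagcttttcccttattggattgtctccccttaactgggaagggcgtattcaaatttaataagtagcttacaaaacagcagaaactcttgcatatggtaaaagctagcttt
Gstp1: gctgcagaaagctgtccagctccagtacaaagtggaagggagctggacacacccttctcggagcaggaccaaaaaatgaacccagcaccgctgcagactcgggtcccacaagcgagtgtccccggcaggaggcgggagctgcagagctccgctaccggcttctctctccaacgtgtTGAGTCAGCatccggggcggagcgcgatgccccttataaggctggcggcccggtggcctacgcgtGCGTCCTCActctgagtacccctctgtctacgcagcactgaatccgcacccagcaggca

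The motifs were searched on both strands, and a match is a description of letters, not a binding site. TGACNNNGC, the core of the antioxidant response element bound by NRF2, was in the Gsta3 promoter at 121 bases before the start, and in 12.4% of all 32851 RefSeq promoter windows of this length. TGAGNNNGC, a variant of that core, was in Gstp1 at 74 and at 9 bases before the start and in Gstt1 at 89 bases, against 17.6% of all windows. GTTAAT, part of the site of the hepatocyte factor HNF1, was in Gsta3 and in 7.1% of windows. TATAAA was in Gstm1 at 30 bases before the start and in Gsta2 at 246, and in 13.6% of windows. In the Gstm3 window none of these letters occurred. The printed Gstm3 and Gstm1 promoters were identical at 58.3% of aligned positions.

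Depth and sharing of sequence set how well these genes can be read. Reads recovered from the FPKM values (fragments normalised to gene model length and library depth) came to 34260782 to 40427855 per library, and the lowest count for any member was 852 reads, for Gsta4 in BDL replicate 1. Reads of 50 bases would not separate every copy: 75.7% of such windows in the Gsta2 coding sequence also occur unchanged in another gene, as do 70.9% in Gstp1 (shared with Gstp2 and the pseudogene Gstp-ps), 59.3% in Gstm3, 37.6% in Gstm1 and 15.2% in Gstm2. Levels of these 5 genes are therefore uncertain to the extent that the authors' counting dropped such reads or gave them to another copy, which was not examined. For Gsta3, Gsta4, Gstm4, Gstt1 and Gstt2 no window was shared.

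Some libraries stood apart from the rest. BDL replicate 1 and BDL_H replicate 2 had the lowest median log2(FPKM + 1), 2.48 and 2.56, against 2.81 to 2.88 in the other 4 ligation libraries and 2.88 to 3.06 in the MDR-model libraries. Expression of 4 Y-linked genes (Eif2s3y, Ddx3y, Kdm5d, Uty) summed to 16.1 to 19.6 FPKM in the 6 ligation libraries and 20.1 in MDR replicate 1, but 0 to 0.016 in the other 5 MDR-model libraries. Y-linked expression and model therefore cannot be told apart at all between the HDCA-treated groups. Between the untreated groups only MDR replicate 1 departs from this split. Hepatocyte markers (7 genes, Alb among them) summed to 45894 to 57024 FPKM in ligation libraries and 31238 to 47727 in MDR-model ones. In such bulk samples, fewer cells of a type and less RNA per cell cannot be told apart. Gene-level FPKM of Abcb4 was 52.8 to 178 in the ligation libraries and 129 to 181 in the MDR-model libraries, so it does not check the genotype; the labels do not say which bases were altered.

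The mu class held the most abundant and the most variable members. Gstm1, the main mu-class transferase of mouse liver, was the highest of the 10 in each library. Its FPKM was 1009, 3752 and 3493 in BDL (mean 2751 ± 1514, SD, n = 3), 3583, 2723 and 3527 in BDL_H, 2627, 2851 and 2765 in MDR, and 2252, 2791 and 2148 in MDR_H. BDL replicate 1 was the low library, 3.52-fold under the median of the other 4 ligation libraries. The other 11 libraries stayed between 2148 and 3752.

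Gstm3 had the widest range, 22.8-fold over the 12 libraries. Its FPKM was 51.6, 899.8 and 1043 in BDL, 1029, 499 and 1178 in BDL_H, 339, 564 and 619.9 in MDR, and 302, 334 and 235 in MDR_H. Both ligation libraries with a low overall median were also the low ones for Gstm3, at 51.6 and 499, while the other 4 reached 899.8 to 1178. All 3 MDR_H libraries were below all 3 MDR libraries, and below all 3 BDL_H libraries.

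Gstm2 and Gstm4 are less abundant mu-class enzymes of the same cluster. Gstm2 FPKM was 104, 177 and 183 in BDL, 191, 160.1 and 165 in BDL_H, 72.3, 110.0 and 135 in MDR, and 89.2, 106 and 101 in MDR_H. All MDR_H libraries were below all BDL_H libraries, whereas BDL and MDR overlapped through BDL replicate 1. Gstm4 FPKM was 16.0, 43.7 and 39.9 in BDL, 47.6, 16.3 and 39.5 in BDL_H, 33.7, 34.1 and 29.3 in MDR, and 29.1, 27.4 and 26.9 in MDR_H. Its low libraries were again BDL replicate 1 and BDL_H replicate 2, and MDR_H lay just below MDR without overlap.

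In the alpha class, Gsta3 was both abundant and steady. This enzyme is known in mice for conjugating the epoxide of aflatoxin B1. Its FPKM was 986, 682 and 638 in BDL, 847, 583 and 720.4 in BDL_H, 849.9, 911 and 872 in MDR, and 1036, 874 and 867 in MDR_H. The range over all 12 libraries was 1.78-fold, the narrowest of the 10 members. BDL replicate 1, low for most members, was the highest ligation library for Gsta3. All MDR_H libraries lay above all BDL_H libraries.

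Gsta2 and Gsta4, unlike Gsta3, had their lowest level in BDL replicate 1. Gsta2 encodes an alpha-class enzyme that also reduces lipid hydroperoxides; its FPKM was 39.9, 84.4 and 89.4 in BDL, 99.2, 50.1 and 85.1 in BDL_H, 93.2, 145 and 143 in MDR, and 154, 130.2 and 76.5 in MDR_H. All 3 MDR libraries were above all 3 BDL libraries, while the HDCA-treated groups overlapped. Gsta4, known for clearing the lipid peroxidation product 4-hydroxynonenal, stood at 22.7, 112 and 130.3 in BDL, 117, 77.5 and 124 in BDL_H, 105, 138 and 136 in MDR, and 123, 108 and 92.2 in MDR_H. Apart from BDL replicate 1, its 11 libraries lay within 77.5 to 138 FPKM, and the groups overlapped in each comparison made.

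The pi-class gene Gstp1, whose enzyme conjugates small electrophiles and also binds the kinase JNK, was dominated by 1 high library. FPKM was 336, 1175 and 906 in BDL, 1003, 846 and 879 in BDL_H, 2306, 656 and 580.4 in MDR, and 878, 500.6 and 502 in MDR_H. MDR replicate 1, the MDR-model library with Y-linked reads, was 3.73-fold above the mean of MDR replicates 2 and 3. The near-identical Gstp2 and the pseudogene Gstp-ps were 5.12-fold and 3.85-fold above in the same library. Of 50-base windows in the Gstp1 coding sequence, 70.9% also occur in another gene. That length was chosen here, and longer or paired reads were not examined. MDR_H replicate 1 was also the highest of its group, 1.75-fold over the mean of the other MDR_H libraries, at a Y-linked sum of only 0.016 FPKM. A list of 12 genes known to be higher in male mouse liver was also highest in replicate 1 of MDR and of MDR_H. Its summed FPKM was 11012, 7675 and 4191 in MDR replicates 1, 2 and 3. For MDR_H it was 12088, 5020 and 3869 in the same order, so replicates 2 and 3 differed at like Gstp1 levels. Genes known to be higher in female liver (14 in the table) summed to 1.95, 134 and 199 in MDR and to 28.6, 259.8 and 618 in MDR_H, so that the libraries highest for Gstp1 were the lowest for these. In the ligation libraries the male-biased list summed to 1588, 4261 and 4149 FPKM in BDL and 3881, 3441 and 3207 in BDL_H. BDL replicate 2 thus had more Gstp1 than MDR_H replicate 1 at a lower sum. BDL replicate 1 was the lowest ligation library for both. The part of Y-linked or sex-biased expression in the Gstp1 levels was not tested.

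Theta-class transferases act on small halogenated compounds such as dichloromethane in the case of Gstt1. Gstt1 FPKM was 87.3, 188 and 173 in BDL, 209, 151 and 166 in BDL_H, 168, 216 and 243 in MDR, and 200.6, 228 and 217 in MDR_H. BDL replicate 1 was again the low library, and the groups overlapped in each of the 4 comparisons made. Gstt2 FPKM was 34.8, 27.7 and 28.2 in BDL, 30.1, 22.7 and 38.4 in BDL_H, 19.2, 28.0 and 28.1 in MDR, and 19.1, 17.8 and 21.4 in MDR_H. Gstt2 was the least abundant member on average in every group, and its MDR_H libraries lay below all BDL_H libraries.

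**Figure D1:**
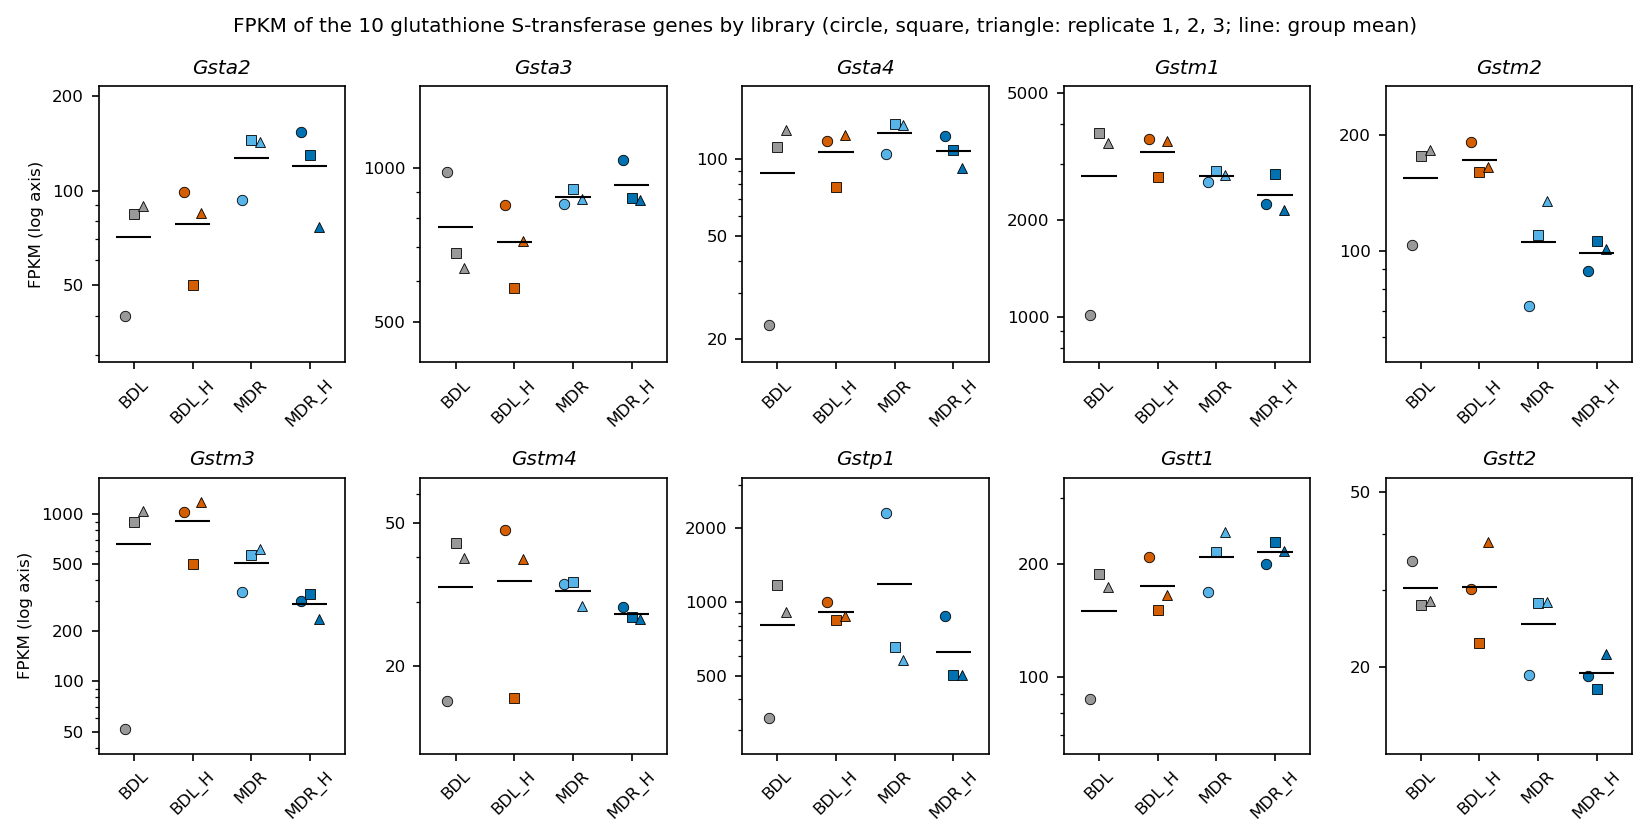
FPKM of the 10 transferase genes in each of the 12 libraries on a log axis, by group, with points for libraries (circle, square and triangle for replicates 1, 2 and 3) and horizontal lines for group means. Gstm3 in BDL replicate 1 (51.6 FPKM) and Gstp1 in MDR replicate 1 (2306 FPKM) stand apart from their groups.

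Summed over the 10 members, FPKM was 2686, 7141 and 6724 in BDL, 7156, 5128 and 6922 in BDL_H, 6612, 5653 and 5552 in MDR, and 5083, 5118 and 4287 in MDR_H. Every MDR_H sum of these 10 was below every MDR sum and every BDL_H sum. The gap to BDL_H was slight, 5118 in MDR_H replicate 2 against 5128 in BDL_H replicate 2. The sum over the 15 other transferase genes in the table showed no such separation. It was 2900 to 3773 FPKM in MDR_H, 2880 to 4026 in MDR and 2614 to 3007 in BDL_H. Mgst1 alone, at 2134 to 3420 FPKM over all libraries, made up most of that sum. Single genes of the 15 differed from it. Gsta1 did separate, at 7.25 to 11.3 FPKM in MDR_H, 18.2 to 20.2 in MDR and 25.6 to 36.6 in BDL_H. Gstk1 instead lay higher in MDR_H than in BDL_H. Gstm1 made up 37.6 to 54.5% of the sum in each library. Gstm3 held 5.49 to 6.53% in MDR_H, 5.13 to 11.2% in MDR, 9.73 to 17.0% in BDL_H and 1.92 to 15.5% in BDL. In BDL replicate 1 the share of Gsta3 was 36.7%, against 9.49 to 11.8% in the other ligation libraries. In MDR replicate 1 Gstp1 held 34.9%.

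**Figure D2:**
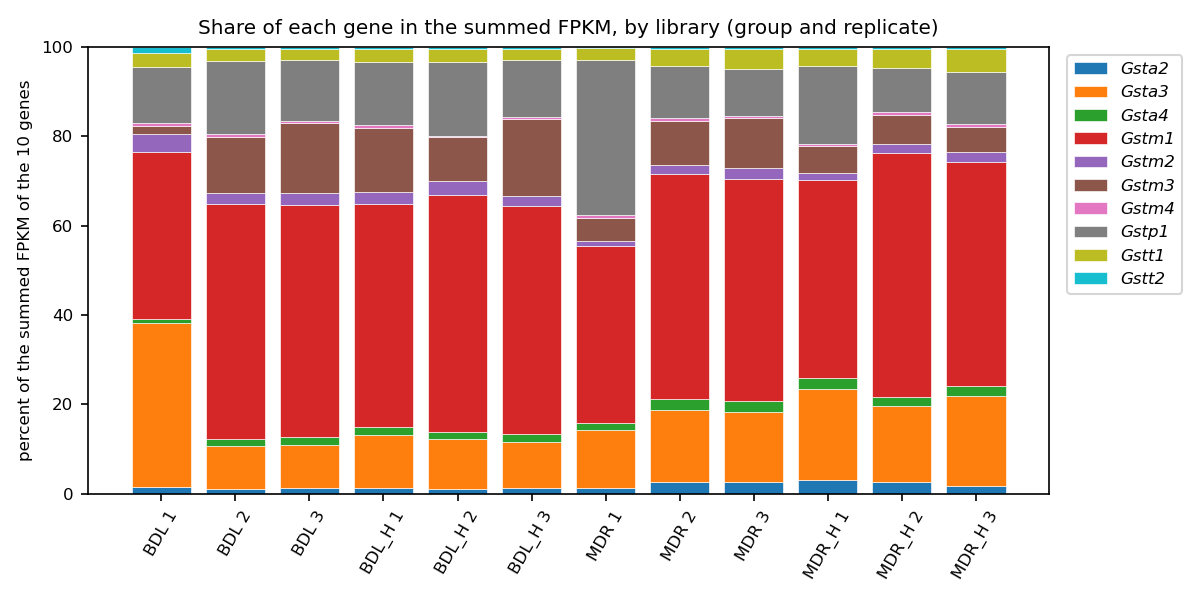
Share of each member in the summed member FPKM, in percent, stacked for each of the 12 libraries. Gsta3 takes 36.7% in BDL replicate 1 and Gstp1 takes 34.9% in MDR replicate 1.

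BDL replicate 1 was lower than the other 4 ligation libraries (BDL_H replicate 2 set aside) for 8 of the 10 members, and for 66.7% of all tested genes. On the log2(FPKM + 1) scale, its difference from their median was -4.30 for Gstm3, -2.36 for Gsta4, -1.82 for Gstm1, -1.50 for Gstp1, -1.33 for Gstm4, -1.11 for Gsta2, -1.04 for Gstt1 and -0.79 for Gstm2. Gsta3 and Gstt2 were instead above the median, by 0.49 and 0.25. Thus 7 of 10 members were at least 1 log2 unit lower, as were 7.76% of all 10805 tested genes, and only 7 tested genes were lower than Gstm3 by this measure. The median over all tested genes was -0.28 there. BDL_H replicate 2 lay below the 4 libraries for all 10 members, and for 65.8% of all tested genes. The differences were smaller there, with -1.31 for Gstm4 and -1.05 for Gstm3. Their median was -0.36 over the members against -0.25 over all tested genes.

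Targets of NRF2, taken from a list that excludes the members, were also low in these libraries. Of 19 tested targets, 16 were below all 4 other ligation libraries in BDL replicate 1 and 17 in BDL_H replicate 2; for all tested genes the shares were 66.7% and 65.8%. Their summed FPKM was 1712 and 1717, against 2554 to 2636 in the other 4. Osgin1, an NRF2-dependent stress gene, was at 32.0 and 28.6 FPKM, against 161 to 196. Nfe2l2 itself was at 23.5 and 22.0 FPKM, against 46.3 to 57.1. The 12 CAR and PXR targets moved in both directions, with 7 above the other 4 libraries and 4 below in BDL replicate 1, and 4 above and 3 below in BDL_H replicate 2. The CAR target Cyp2b10 was at 18.4 and 23.3 FPKM against 0.776 to 2.53, whereas the PXR target Cyp3a11 was at 1249 and 4940.2 FPKM against 3906 to 5377. Cell type markers moved as well. All 5 macrophage markers were below the other 4 libraries in both, with sums of 71.8 and 90.5 FPKM against 163 to 185. Cholangiocyte markers summed to 118 and 127 FPKM against 238 to 403, with 3 and 2 of 5 tested markers below the other 4. Endothelial markers were low in BDL replicate 1, at 19.1 FPKM against 57.5 to 87.7 with 4 of 5 below, but not in BDL_H replicate 2, at 81.1. Stellate and fibroblast markers summed to 55.2 and 114 FPKM against 85.2 to 185, with 6 and 3 of 6 below the other 4. Hepatocyte markers summed to 51833 and 55218 FPKM against 45894 to 57024, and 5 and 3 of the 7 lay above the other 4, as did 14.5% and 11.8% of all tested genes. No marker of these 5 lists was at 0 throughout. Of 3 neutrophil markers, 1 was below the other 4 libraries in BDL replicate 1 and 0 above. In BDL_H replicate 2, 0 of these 3 were below and 1 above. The 2 tested lymphocyte markers were below in each of these libraries, as were 3 and 2 of 3 erythroid markers. Periportal genes summed to 8075 and 7035 FPKM, against 4309 to 4586, with 11 and 7 of 12 above the other 4. Pericentral genes summed to 5331 and 4672 FPKM, against 2489 to 3254, with 6 of 13 above and 4 below in each of these libraries. In BDL replicate 1, 11 of the 12 male-biased genes were below the other 4 libraries and 5 of 6 tested female-biased genes above them. Its Y-linked sum was unremarkable, at 16.1 FPKM. In BDL_H replicate 2, 7 of the 12 male-biased and 3 of the 6 female-biased genes were below, and 1 of each list was above. The part of these differences in the transferase levels was not tested.

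**Figure D3:**
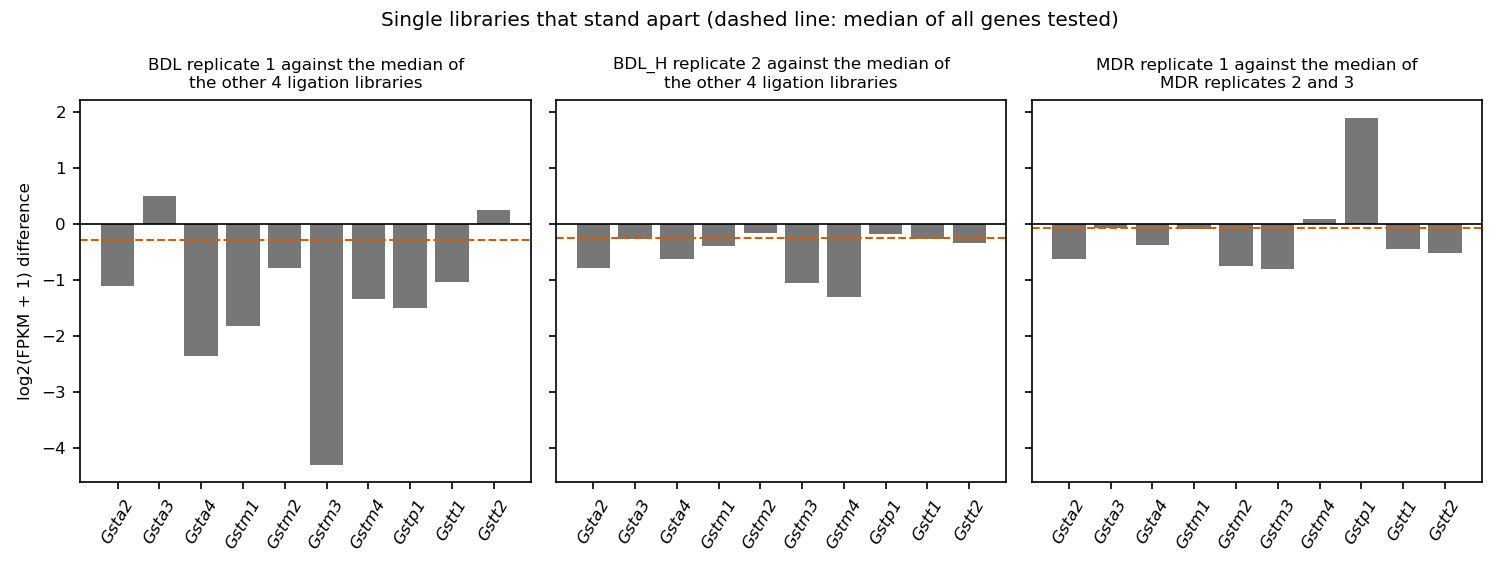
Difference on the log2(FPKM + 1) scale of each member in BDL replicate 1 and in BDL_H replicate 2 from the median of the other 4 ligation libraries, and in MDR replicate 1 from the median of MDR replicates 2 and 3; bars are members and the dashed line is the median of all tested genes. Gstm3 reaches -4.30 in BDL replicate 1 and Gstp1 reaches 1.90 in MDR replicate 1.

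The effect of HDCA was read within each model. In the ligation model, 8 members had a higher mean with HDCA and 2 a lower one, with a median log2 difference of 0.24 over the members and 0.03 over all tested genes. These counts rested on single libraries: without BDL replicate 1, 2 members were above 0 and 8 below, with a median of -0.17, and without BDL_H replicate 2 all 10 were above 0, with a median of 0.42; without BDL replicate 2 the median was 0.41. None of the 10 members passed an adjusted p of 0.05 in limma, and percent called over all tested genes was 0; at an unadjusted p under 0.05 there were 243 genes, or 2.25%, and no member. Gstm3 gave the largest difference, 1.21 ± 0.89 (SE; 95% interval -0.74 to 3.16). Without BDL replicate 1 the Gstm3 difference was -0.20, and without BDL replicate 1 and BDL_H replicate 2 together it was 0.18. With both left out, 6 members were above 0 and 4 below, and the median was 0.05. No member had BDL_H libraries all above or all below the BDL libraries; 5.03% of tested genes did (3.43% above, 1.59% below).

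In the MDR model, 8 members had a lower mean with HDCA and 2 a higher one, with a median log2 difference of -0.21 over the members and -0.04 over all tested genes. The count called was 0 of 10 members and 0 of all tested genes with limma, and 61 genes (0.565%), no member among them, had an unadjusted p under 0.05. Gstm3 differed by -0.77 ± 0.89 (95% interval -2.72 to 1.18), Gstp1 by -0.66 ± 0.54 (-1.84 to 0.51) and Gstt2 by -0.34 ± 0.20 (-0.77 to 0.10). Gstm3 and Gstm4 had all MDR_H libraries below all MDR libraries, as had 4.6% of tested genes, and no member had them above, as had 1.35% (5.95% in either direction). Libraries of the same number deviated together in this model, and within the 3 numbered pairs Gstm1, Gstm3, Gstm4, Gstp1 and Gstt2 were lower with HDCA in each pair, 5 of the 10 members; 18% of all tested genes were lower in each pair and 5.77% higher. For Gstm3 the pairs differed by -0.17, -0.75 and -1.39, and for Gstp1 by -1.39, -0.39 and -0.21. The pairs were taken from the values alone, as the labels give none. Pair 1 set MDR replicate 1, with a Y-linked sum of 20.1 FPKM, against MDR_H replicate 1, at 0.016. HDCA and Y-linked expression therefore cannot be told apart in that pair. Without MDR replicate 1 the Gstp1 difference was -0.03, and that of Gstm3 was -1.04. With BDL replicate 1, BDL_H replicate 2 and MDR replicate 1 all left out, Gstm3 had an interval of -1.39 to -0.68 and an adjusted p of 0.482 in limma. Its SE fell from 0.89 to 0.16, and the ligation libraries enter this difference only through the shared spread. In that fit 486 of 10805 tested genes, 4 members among them, had an unadjusted p under 0.05 in limma. The libraries left out were set apart by these same data, so this interval is a description.

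The difference of the HDCA effects between models was tested as well, with no member and no other gene called; 200 genes (1.85%) had an unadjusted p under 0.05. It was -1.98 ± 1.26 for Gstm3 and -1.02 ± 0.76 for Gstp1, and 9 of the 10 members were below 0, with a median of -0.30. Without BDL replicate 1 the difference was -0.58 for Gstm3 and -0.48 for Gstp1, and 4 members were above 0 and 6 below, with a median of -0.02. The median was -0.47 without BDL replicate 2 and -0.63 without BDL_H replicate 2. Without MDR replicate 1 it was -0.38 for Gstp1. A p that misses the threshold does not show that the responses were alike, and the interval for Gstm3 ran from -4.73 to 0.78. Each effect shares its untreated libraries with the comparison of untreated models, so the values stand side by side and are no independent evidence of each other.

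Between the untreated models, MDR against BDL, no member was called in limma, whereas 16.2% of all tested genes were (15.1% higher and 1.07% lower in MDR). The median over members was 0.32 and that of all tested genes 0.25, with 8 members above 0 and 2 below. Without BDL replicate 1 the members' median was -0.14, with 4 above and 6 below, against 0.17 for all tested genes, and without BDL replicate 2 it was 0.64. Gsta2 was highest relative to BDL, at 0.88 ± 0.36 (95% interval 0.08 to 1.68, adjusted p = 0.115 in limma), and its MDR libraries were all above BDL, as were those of 39.2% of tested genes. No member had them all below, as had 3.12% (42.3% in either direction). Gstm2 differed by -0.54 ± 0.25 (adjusted p = 0.145 in limma). Gsta2 and Gstm2 were the 2 members with an unadjusted p under 0.05, a mark that 34.3% of all tested genes reached. Without BDL replicate 1 alone, 1 member was called (Gstm2, -0.80, adjusted p = 0.0409 in limma). In that fit 1151 of all 10805 tested genes were called, 1012 higher and 139 lower. Without BDL replicate 1 and BDL_H replicate 2 together, 4 members were called, against 20.6% of all tested genes. These were Gsta3, higher in MDR by 0.41 (adjusted p = 0.0404), and 3 mu-class genes lower in MDR: Gstm2 by -0.80 (0.0281), Gstm3 by -0.98 (0.0218) and Gstm4 by -0.36 (0.0459), all in limma. Lower calls made up 3.34% of all tested genes in that fit. The 2 libraries left out were set apart by values of these same data and were low for most members. Adjusted p-values of that fit are therefore a description, not independent support. Gstm3 changed direction with these libraries, from 0.42 with them to -0.98 without.

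Between the HDCA-treated groups, MDR_H against BDL_H, no member was called either, against 8.29% of all tested genes (7.36% higher, 0.935% lower). Every BDL_H library had Y-linked expression (sums of 16.5 to 19.6 FPKM) and no MDR_H library did (0.005 to 0.016). Model and Y-linked expression cannot be told apart in any difference below. The members had a median of -0.31 and all tested genes one of 0.20. Gstm2 differed by -0.79 ± 0.25 (95% interval -1.33 to -0.25, adjusted p = 0.0684 in limma), Gstt2 by -0.59 ± 0.20 (-1.03 to -0.16, 0.0828) and Gstm3 by -1.55 ± 0.89 (-3.50 to 0.40, 0.271). These 3 genes had all MDR_H libraries below all BDL_H libraries, as had 4.55% of tested genes, and Gsta3 had them all above, as had 32.4% (36.9% in either direction). An unadjusted p under 0.05 was reached by Gstm2 and Gstt2 and by 28.3% of all tested genes. Without BDL replicate 1 and BDL_H replicate 2, 5 members were called lower in MDR_H, where 3.34% of all tested genes were called lower, 8.45% higher and 11.8% in either direction. Their differences were -1.93 for Gstm3 (adjusted p = 0.00216), -0.84 for Gstm2 (0.0354), -0.78 for Gstt2 (0.0215), -0.62 for Gstm4 (0.00998) and -0.58 for Gstm1 (0.0276), all in limma. As above, the libraries left out were set apart by these same data, so these p-values are a description. Leaving MDR replicate 1 out in addition gave 3 called members between the untreated models (Gsta3, Gstm2, Gstm3) and 5 between the treated ones; 23.6% of all tested genes were then called between the untreated models (19.8% higher, 3.73% lower) and 14.8% between the treated ones (10.8% higher, 3.95% lower). The median of all tested genes depends on scaling. Median-of-ratios scaling moved it from 0.25 to -0.05 for the untreated models and from 0.20 to -0.03 for the treated ones. Under that scaling Gstm2 was called lower in both (-0.91 and -1.07) and Gstt2 in the treated models (-0.86), where 4.5% and 3.44% of all tested genes were called lower and 5.92% and 3.08% higher (10.4% and 6.52% in all), while Gsta3, Gstm1 and Gstm4 turned from above 0 to below it between the untreated models; the members' medians were then -0.05 and -0.58.

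**Figure D4:**
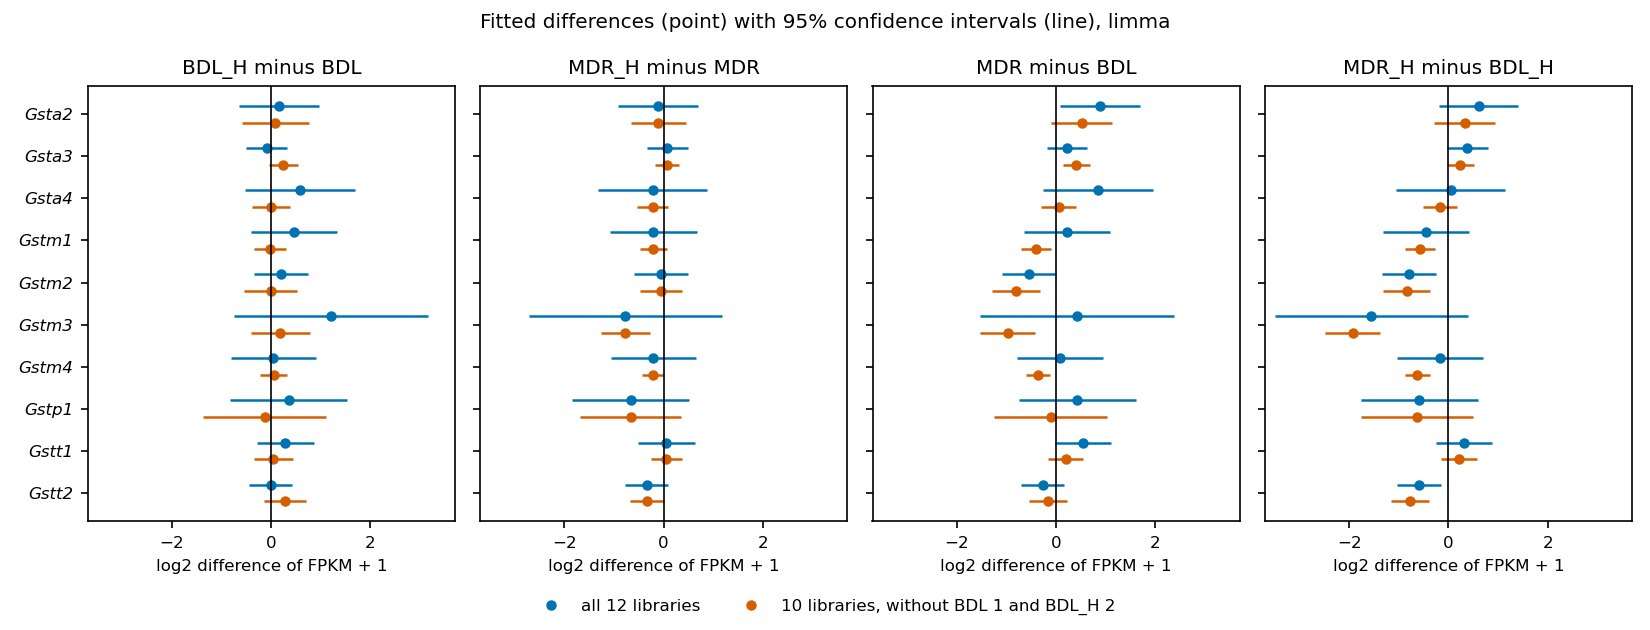
Log2 difference with 95% interval for each member in the 4 comparisons of groups, with all libraries (blue) and without BDL replicate 1 and BDL_H replicate 2 (orange). Between the treated models Gstm3 lies at -1.55 with an interval across 0 and, without the 2 libraries, at -1.93 with an interval of -2.48 to -1.39.

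Outside the 10 members, Gstk1, the mitochondrial and peroxisomal kappa-class transferase, was the 1 gene called among 12 other tested transferase genes. Its FPKM was 97.9, 75.0 and 79.4 in BDL, 79.5, 78.4 and 74.5 in BDL_H, 133, 122 and 132 in MDR, and 146, 133 and 129 in MDR_H. It was higher in MDR than in BDL by 0.62 ± 0.12 (adjusted p = 0.00811 in limma) and higher in MDR_H than in BDL_H by 0.80 ± 0.12 (adjusted p = 0.00616 in limma), with no overlap in either; this 1 of 12 stands against 15.1% and 7.36% of all tested genes called higher. Gsta1, the coding sequence nearest to Gsta2 at 97.6% identity, was at 5.21, 31.8 and 38.8 FPKM in BDL, 36.6, 25.6 and 30.9 in BDL_H, 18.7, 18.2 and 20.2 in MDR, and 7.25, 8.52 and 11.3 in MDR_H. All its MDR_H libraries were below all MDR libraries, and the difference of -1.02 ± 0.53 had an adjusted p of 1.00 in limma (0.0801 unadjusted).

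Genes that supply glutathione, move its conjugates or regulate the family were read from the same fit. No gene of these lists was called in either HDCA comparison. Their counts between models stand against 15.1% of all tested genes called higher and 1.07% lower in MDR, and 7.36% higher and 0.935% lower in MDR_H. In lists of 8 to 20 genes a single call moves the share widely, and no count here is read as particular to its list. Between the untreated models, 2 of 20 tested glutathione metabolism genes rose in MDR and 1 fell: the peroxidase Gpx3 by 1.24, the methylglyoxal-clearing enzyme Glo1 by 0.53, and the glutathione-degrading Chac1, which fell by 1.51. Gpx3 and Glo1 were also higher in MDR_H than in BDL_H (1.27 and 0.58). Of 8 transporters, Abcc1 (0.74) and Abcc6 (0.50) were called higher in MDR, and Abcc6 (0.58) between the treated groups. Abcc2, the canalicular exporter, was not called; its FPKM was 64.3, 76.0 and 76.7 in BDL, 78.7, 42.6 and 78.2 in BDL_H, and 60.2 to 79.2 in the MDR-model libraries. Among 19 regulators, Cebpa (0.90), Stat5b (0.71) and Ppara (0.66) were called higher and Nr1i2, encoding PXR, lower in MDR (-0.48). Cebpa, Stat5b and Ppara were called higher between the treated groups as well. Of 19 NRF2 targets, the carbonyl reductase Cbr3 was called higher in both comparisons (0.87 and 0.97), and Hmox1, which degrades haem, was called lower between the treated groups (-1.95). Of 12 CAR and PXR targets, the cytochrome P450 gene Cyp2a5 (-1.04) and Alas1 (-1.66), which starts haem synthesis, were called lower between the untreated models, and Cyp2a5 (-1.54) between the treated ones. The medians for NRF2 targets were -0.03 and 0.01, against 0.25 and 0.20 over all tested genes.

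Each member's profile over the 12 libraries was compared with those of 10781 tested genes outside the family, as the root mean square difference between log2(FPKM + 1) profiles centred on their own means. The points share libraries and depth, so this is a description. Gsta3 had the smallest distance, to Smim10l1, at 0.0906. Gstt1 was nearest to Stat2 (0.130), Gstm4 to Mov10 (0.147), Gstt2 to Klf13 (0.167), Gsta2 to Il10rb (0.179), Gstm1 to Sorbs2 (0.189), Gsta4 to Tinagl1 (0.194) and Gstm2 to Pltp (0.220). Gstp1 was nearest to Cyp2u1 (0.295), a cytochrome P450 gene whose FPKM was 5.71 in MDR replicate 1 and 0.460 in BDL replicate 1, against 1.54 to 3.26 in the other 10 libraries. Gstm3 had the largest distance to its nearest gene, D17H6S56E-5, at 0.609. Among the members, Gstm1 and Gstm4 were nearest to each other, at 0.322, and Gstm3 was the member farthest from 8 of the other 9.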

How the data were processed

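Libraries of polyA RNA from mouse liver were built, per the labels' protocols, using a VAHTS Universal V6 kit. Per the submitters' processing notes, CASAVA 1.8, fastp, HISAT2 2.0.5, featureCounts 1.5.0-p3, DESeq2 1.20.0 and the build GRCm38 were used; the strand setting and annotation release were not given in the sources used here. The authors deposited 1 table of FPKM values for 16970 genes. FPKM steps gave whole reads, within 0.02 of a read, for 16968 genes (99.99%). FPKM was analysed as log2(FPKM + 1), a scale that understates changes of low genes. Genes at 1 FPKM or more in at least 3 libraries, 10805 in all, were tested with limma 3.58.1 (R 4.3.3, trend) on 4 group means over 12 libraries with 8 residual degrees of freedom. P-values were two-sided and adjusted by Benjamini-Hochberg over all tested genes; genes were called under 0.05. limma-voom on the recovered reads called 1585 genes between the untreated models, 670 between the treated ones and 0 in the HDCA comparisons. The limma test was also tried on simulated data.

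Same-numbered MDR and MDR_H libraries had deviations from group means that correlated at 0.438, 0.312 and 0.548, so numbers were taken as pairs there, from the values alone. The members and the gene lists were chosen with earlier results of these data known. BDL replicate 1 and BDL_H replicate 2 were set apart by their own values in these data. All members were named, with up to 4 genes of a list by smallest p and the nearest profile of each member; single-library values, Abcb4, Abcc2, Osgin1, Nfe2l2, Cyp2b10, Cyp3a11 and Gstp2 were chosen after values were seen. Alternatives covered the pseudocount, filter, scaling, libraries and replicate block.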

Additional observations from a re-analysis of the deposited data

How the results depend on the processing

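In both HDCA comparisons and in their difference, no member and no other gene was called under any alternative run. Of all genes, 1746 were called between the untreated models and 896 between the treated ones; with a mean FPKM of at least 5 these were 616 and 436, with median-of-ratios scaling 1126 and 705, with only the libraries compared 729 and 542, and without BDL replicate 1, BDL_H replicate 2 and MDR replicate 1 together (added after seeing the data) 2547 and 1597. With the replicate number as a block they were 1351 and 589, no member was called, and no member's call changed; same-numbered libraries outside the MDR model correlated at -0.43 to 0.431 and were not taken as pairs. Median-of-ratios scaling lowered the share of higher calls from 93.4% to 56.8% and from 88.7% to 47.2%. Members called, 0 in both with all settings as reported, were 1 and 2 with median-of-ratios scaling, 0 and 2 (Gstm2, Gstm3) with only the libraries compared, 4 and 5 without BDL replicate 1 and BDL_H replicate 2, and 3 and 5 without MDR replicate 1 as well. Leaving out 1 library at a time gave 0 to 1 and 0 to 2 members and 489 to 2346 and 167 to 1550 genes; the member called between the untreated models, Gstm2, came without BDL replicate 1, and the 2 between the treated ones also came without BDL replicate 1. Counts of genes moved by over 1.5 times between the untreated models without BDL replicate 1 (1151) or 2 (865) and MDR replicate 2 (489) or 3 (688), and between the treated ones without BDL replicate 1 (1550) or 2 (577), BDL_H replicate 1 (400), 2 (259) or 3 (460), MDR replicate 3 (504) and MDR_H replicate 1 (238), 2 (167) or 3 (234). The causes of these shifts were not tested. The stricter filter also left fewer genes to test, 6163 against 10805.

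Directions of single members changed as follows, in log2 differences. Median-of-ratios scaling gave -0.006 for Gstm4 with HDCA in BDL, -0.15 for Gsta3, -0.16 for Gstm1 and -0.27 for Gstm4 between the untreated models, and -0.23 for Gsta4 between the treated ones. Without BDL replicate 1 and BDL_H replicate 2, HDCA in BDL gave 0.24 for Gsta3, -0.002 for Gsta4, -0.026 for Gstm1, -0.015 for Gstm2, -0.14 for Gstp1 and 0.27 for Gstt2, the same values as when MDR replicate 1 was left out too. The difference of HDCA effects gave -0.17 for Gsta3 and 0.017 for Gstt1, and without MDR replicate 1 as well -0.19 for Gsta3 and 0.11 for Gstp1; HDCA in MDR then gave -0.091 for Gstt1. The untreated models gave -0.40 for Gstm1, -0.98 for Gstm3, -0.36 for Gstm4 and -0.11 for Gstp1, and without MDR replicate 1 too -0.37, -0.71, -0.39 and -0.74, with 0.0042 for Gstt2. Gsta4 gave -0.17 between the treated models in either case. With 1 library left out, HDCA in BDL ranged from -0.21 to 0.45 for Gsta2, -0.22 to 0.10 for Gsta3, -0.21 to 1.02 for Gsta4, -0.15 to 0.79 for Gstm1, -0.065 to 0.34 for Gstm2, -0.20 to 1.96 for Gstm3, -0.40 to 0.50 for Gstm4, -0.19 to 0.72 for Gstp1, -0.061 to 0.49 for Gstt1 and -0.19 to 0.17 for Gstt2. HDCA in MDR ranged from -0.32 to 0.18 for Gsta2, -0.012 to 0.12 for Gsta3, -0.30 to 0.14 for Gstm2 and -0.091 to 0.17 for Gstt1. Their difference ranged from -0.56 to 0.097 for Gsta2, -0.031 to 0.29 for Gsta3, -0.50 to 0.011 for Gstm2, -0.71 to 0.19 for Gstm4 and -0.43 to 0.12 for Gstt1. The untreated models ranged from -0.40 to 0.55 for Gstm1, -0.98 to 1.18 for Gstm3, -0.36 to 0.34 for Gstm4 and -0.20 to 0.80 for Gstp1, and the treated models from -0.17 to 0.17 for Gsta4 and -0.62 to 0.12 for Gstm4. Reads per member (852 at the lowest) limit these values less than the spread between libraries.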
